A study of Mus musculus with 2 samples.

Results

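The clustered histone genes were the 67 genes, of 32285 in the gene lists of the files, whose symbol begins with Hist1h, Hist2h, Hist3h or Hist4h. They comprised 6 genes of the linker histone H1, 18 of H2A, 18 of H2B, 12 of H3 and 13 of H4. The members were chosen by symbol alone and no measured value was used to pick single genes, but the group was proposed with earlier results of these data in view. The measurements were UMI counts (counts of captured RNA molecules) per gene and cell from 2 single-cell libraries of subcutaneous MC38 tumors, a mouse colon cancer line. One library came from Lmo7+/+ C57BL/6 hosts and the other from Lmo7-/- hosts, which carried a whole-body deletion of Lmo7, while the injected MC38 cells were the same line in both. Hosts were female and 6 to 8 weeks old when the MC38 cells were injected. Both libraries held FACS-sorted live cells, and the number of animals behind each library was not given in the sources used here. With 1 library per genotype no difference between genotypes could be tested, so each is given as 2 values whose intervals covered counting error only. The question addressed here was how each histone class and its members were distributed over cycling and resting cells of each cell class and over both libraries.

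Core histones H2A, H2B, H3 and H4 form the protein spool around which DNA is wound, and linker histone H1 binds the DNA that enters and leaves it. Most clustered histone genes are replication-dependent: they are transcribed mainly while DNA is copied, and their messages end in a conserved stem-loop bound by the protein Slbp in place of a poly(A) tail. Some clustered genes also give polyadenylated messages, including in cells that do not divide. The 10x Chromium chemistry that the authors named primes reverse transcription on poly(A), so the UMIs described here count captured molecules and cannot be read as the total histone message.

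From approximately 10000 cells loaded per library, the files held 16208 droplets with the label Lmo7+/+ and 15163 with the label Lmo7-/-, and the filters on genes, UMIs and mitochondrial share kept 13542 and 11860 cells. Both kept numbers exceeded the stated number loaded, for which the sources used here gave no reason. Some kept droplets may therefore not be single cells. A doublet caller marked 2.90% (Lmo7+/+) and 2.60% (Lmo7-/-) of kept cells, and whether doublets bear on the excess was not tested. The libraries held 98582479 and 80648345 UMIs, with medians of 4535.5 and 4304.5 UMIs per kept cell, and 279 barcodes (175 among kept cells) occurred in both. Cell classes were rebuilt from marker genes and carry the ending "-like": 5527 (Lmo7+/+) and 3957 (Lmo7-/-) cells were tumor cell-like, 3085 and 3683 macrophage-like and 497 and 678 T cell-like, and 3173 and 2610 stayed unnamed. RNA of other cells was present: the tumor marker Hmga2 stood at 268 CPM (UMIs per 1000000 UMIs) in resting tumor cell-like cells, at 10.8 CPM in resting macrophage-like cells and at up to 45.6 CPM (neutrophil-like) in the other named classes, and the macrophage marker C1qa at 2349 CPM in resting macrophage-like, 1021 in neutrophil-like and 15.8 CPM in tumor cell-like cells. Within the T cell-like class, cluster 5.3 held 83.7 CPM of Hmga2 and 93.4 CPM of Csf1r, a macrophage gene, and without it the cycling over resting ratio given below for that class (0.81) was 0.93. Lmo7 did not separate the libraries: tumor cell-like cells held 20.3 and 19.1 CPM, and fibroblast-like and endothelial cell-like cells, which belong to the host, held 17.6 CPM (20 UMIs, 95% interval 10.8 to 27.2) and 12.5 CPM (12 UMIs, 6.45 to 21.8). Which exons the deletion removes was not given in the sources used here, so this gene did not check the labels, and the genotype below is that of the label.

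Sequence features of the messages are shown first because the assay reads the ends of messages. The stem-loop pattern, shown in capitals below, was present in an annotated transcript of 44 of the 67 members (65.7%), against 89 of 55450 genes (0.161%) in the GENCODE M21 annotation of GRCm38. In 18 of these members the annotated transcript ran on for at least 200 bases past the stem-loop, and in 26 it stopped sooner. Stem-loops of a pair of members with a long tail and a pair with a short tail are given here, read along the message, with the 16 bases of the pattern in capitals.
Hist1h1c: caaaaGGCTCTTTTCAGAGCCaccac
Hist1h4i: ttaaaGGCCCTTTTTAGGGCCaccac
Hist1h2ag: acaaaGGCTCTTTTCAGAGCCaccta
Hist1h3c: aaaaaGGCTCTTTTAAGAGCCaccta
The 26 bases of Hist1h1c lay at chr13:23739507-23739532 on the plus strand, followed by 840 bases of transcript. Those of Hist1h4i lay at chr13:22040961-22040986 on the minus strand, followed by 330 bases. The transcript of Hist1h2ag (chr13:22042478-22042503, minus strand) ended 23 bases after the pattern and that of Hist1h3c (chr13:23745042-23745067, minus strand) 74 bases after it. The stem itself was thus the same sequence in Hist1h1c and Hist1h2ag, and the length of transcript behind it differed. Hist1h2bc, the member with the most UMIs, had 1 annotated transcript of 2 exons in which the pattern was not found.

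The members with a long tail held 54.5% of the UMIs of the clustered histone genes, the 23 members in which no pattern was found held 35.3%, and the 26 with a short tail held 10.2%. The median was 97 UMIs per gene with a long tail, 43.5 with a short tail and 25 with no pattern found. At least 100 UMIs were reached by 9 of 18, 7 of 26 and 3 of 23 of them, so members with short annotated tails were also captured.

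Upstream sequence is shown for a pair of H1 genes that moved in opposite directions with the cell cycle and for the gap between a pair of neighbours of unlike level. Capitals mark matches, on either strand, to CCAAT, to TATAAA, to the H1 box AAACACA and to the octamer ATTTGCAT, and each line gives the 250 bases before the start of the gene in RefSeq (GRCm38.p6), 5′ to 3′ in the direction of the gene.
Hist1h1b: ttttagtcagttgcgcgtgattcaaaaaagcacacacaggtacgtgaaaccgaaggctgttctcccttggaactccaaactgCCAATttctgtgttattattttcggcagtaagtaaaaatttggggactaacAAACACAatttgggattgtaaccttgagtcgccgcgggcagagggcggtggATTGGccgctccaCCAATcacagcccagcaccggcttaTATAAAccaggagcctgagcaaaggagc
Hist1h1c: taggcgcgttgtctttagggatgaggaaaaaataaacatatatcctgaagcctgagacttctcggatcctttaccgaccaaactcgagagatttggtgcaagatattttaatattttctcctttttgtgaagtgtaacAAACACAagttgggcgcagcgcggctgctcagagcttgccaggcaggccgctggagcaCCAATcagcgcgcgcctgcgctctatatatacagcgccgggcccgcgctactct
Hist1h2ac: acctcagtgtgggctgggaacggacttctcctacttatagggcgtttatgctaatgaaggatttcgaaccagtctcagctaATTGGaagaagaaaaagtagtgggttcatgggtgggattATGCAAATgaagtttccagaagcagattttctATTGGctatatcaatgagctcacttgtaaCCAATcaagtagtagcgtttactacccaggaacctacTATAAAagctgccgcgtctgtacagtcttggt
These stretches lay at chr13:21780626-21780875 (minus strand), chr13:23738557-23738806 (plus strand) and chr13:23683960-23684209 (minus strand). Both H1 stretches held the H1 box and a CCAAT match, and TATAAA was matched in that of Hist1h1b only. The window of 300 bases, from 250 before to 50 after the start, was found for 61 members. CCAAT was matched in 52 of them (85.2%), including all 6 H1 genes but 3 of 12 H4 genes, against 37.4% of 32851 promoters. TATAAA was matched in 57.4% of the members and 13.6% of all promoters, and the H1 box in 5 of 6 H1 genes against 7.18% of all promoters. The octamer was matched in 7 of 17 H2A and 7 of 16 H2B windows against 1.74% of all promoters, and in no H1, H3 or H4 window. Windows of closely spaced head-to-head neighbours, described below, overlap. A match between such neighbours can therefore count for both genes, so the H2A and H2B counts are not separate observations.

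Of the members, 13 pairs lay head to head, with starts on opposite strands within 1000 bases. Hist1h2ac and Hist1h2bc, an H2A and an H2B gene whose starts lay 251 bases apart around the stretch shown above, held 297 and 6594 UMIs. Hist1h2ag and Hist1h2bj, 270 bases apart, held 394 and 113 UMIs. Hist1h2ae and Hist1h2bg, 176 bases apart, held 662 and 59 UMIs. Levels within these pairs were unlike, whereas Hist1h2ak and Hist1h2bn, 296 bases apart, held 24 and 22 UMIs.

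Clustered histone genes together gave 25006 UMIs in the kept cells, which was 143 CPM (95% Poisson interval 141 to 146) with Lmo7+/+ hosts and 150 CPM (147 to 153) with Lmo7-/- hosts, or 1.00 and 0.963 UMIs per cell. A UMI was found for 64 members, and Hist1h2aa, Hist1h2ba and Hist1h2bq had none. At least 20 UMIs were reached by 50 members and at least 100 by 19, with a median of 52 over the 67. Hist1h2bc (6594 UMIs, an H2B gene) and Hist1h1c (6058 UMIs, encoding linker histone H1.2) held 50.6% of the UMIs. With Hist1h4i (2589, an H4 gene) and Hist3h2a (2359, an H2A gene outside the main cluster) the share was 70.4%, and with Hist1h1b (1161, histone H1.5) and Hist1h1e (1086, histone H1.4) it was 79.4%. A statement on the summed members is therefore largely one on these 6 genes.

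H1 held 34.4% of the UMIs, H2B 30.8%, H2A 16.6%, H4 14.3% and H3 3.83%. In each class 1 gene led: Hist1h1c held 70.3% of H1, Hist3h2a 56.8% of H2A, Hist1h2bc 85.6% of H2B, Hist1h4i 72.4% of H4 and Hist1h3c 32.1% of H3. After these leaders came Hist1h2ae (662 UMIs) and Hist1h2ag (394) in H2A, Hist2h2be (497) and Hist3h2ba (137) in H2B, Hist2h3c1 (145) and Hist1h3a (92) in H3, and Hist1h4d (256) and Hist1h4h (176) in H4. H3 was thus the class with the fewest counted molecules, although a nucleosome holds the core histones in equal number. Whether near-identical copies, described next, lowered the total of a class was not tested.

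Near-identical copies limited what could be assigned to single genes. No stretch of 60 bases was unique to Hist2h3c1 or Hist2h2aa2 among annotated transcripts, 21.6% of those of Hist1h2ag were unique, and 92.4% of those of Hist1h1c and 100% of those of Hist1h1b were. Hist1h1e overlapped Hist1h2be and Gm11398 on its own strand (69.4% unique), and Hist3h2a overlapped Trim17 on its own strand (68.9% unique), so their counts are uncertain to that extent.

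**Figure D1:**
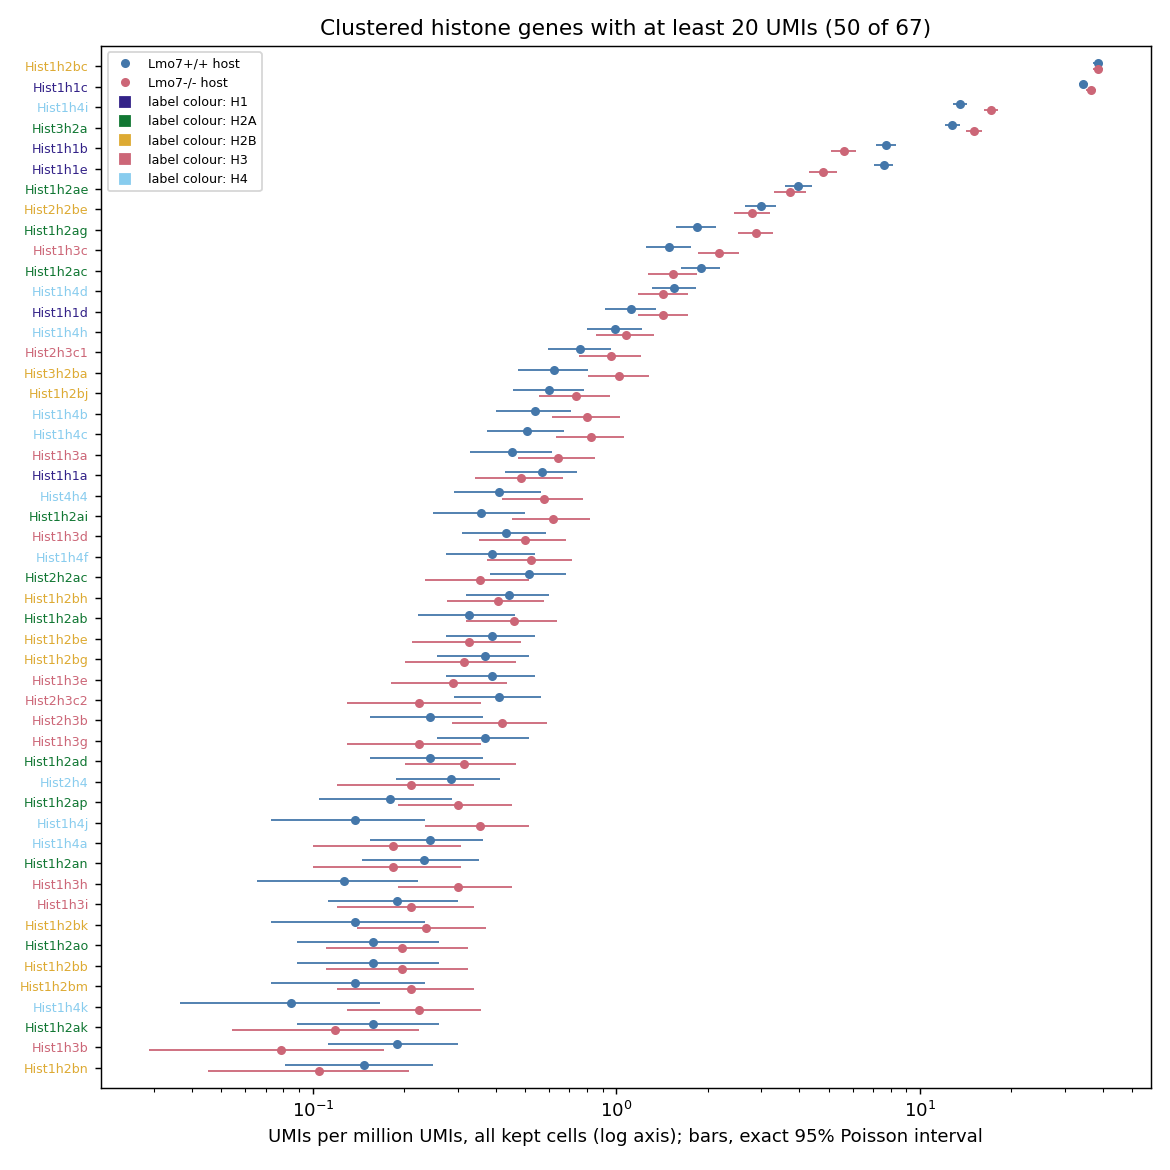
Level of each clustered histone gene with at least 20 UMIs (50 of 67) in all kept cells of each library, in CPM on a log axis, with the gene names coloured by histone class. Points are the 2 libraries and bars exact 95% Poisson intervals; Hist1h2bc and Hist1h1c stand at 34.5 to 38.6 CPM, and Hist1h1b and Hist1h1e are the upper members whose intervals lie apart with the Lmo7-/- library lower.

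Levels over all kept cells showed the same order in both libraries for the leading genes. Hist1h2bc stood at 38.5 CPM with Lmo7+/+ hosts and 38.6 with Lmo7-/- hosts, and Hist1h1c at 34.5 and 36.5 CPM. Hist1h4i stood at 13.6 and 17.1 CPM and Hist3h2a at 12.8 and 15.1 CPM. Hist1h1b stood at 7.74 (7.19 to 8.32) and 5.61 (5.09 to 6.17) CPM and Hist1h1e at 7.60 (7.05 to 8.17) and 4.80 (4.32 to 5.32) CPM. The plot of members by library shows the H1 pair Hist1h1b and Hist1h1e below in the Lmo7-/- library while Hist1h4i and Hist3h2a were above in it. These whole-library levels mix cell classes, whose shares differed between the libraries, and the comparisons by class follow.

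Cells were called cycling or resting without any histone gene. Each cell was thinned to 1500 UMIs, and the UMIs of 80 cycle genes (40 of S phase and 40 of G2/M) were counted, with at least 6 called cycling and at most 2 resting. Of cells deep enough to call, 53.0% of the tumor cell-like cells were cycling with Lmo7+/+ hosts and 52.7% with Lmo7-/- hosts, 35.5% and 25.6% of macrophage-like cells, and 47.2% and 49.7% of T cell-like cells. Median depth was 7228 and 6076 UMIs in cycling and 9038 and 7609 in resting tumor cell-like cells, 6663 and 5847 in cycling and 4926 and 4419 in resting macrophage-like cells.

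Summed over the 67 members, resting tumor cell-like cells held more clustered histone UMIs than cycling ones, and in macrophage-like and T cell-like cells it was the reverse. In tumor cell-like cells the sum was 92.5 CPM in cycling and 106 CPM in resting cells of the Lmo7+/+ library, and 86.5 and 124 CPM in the Lmo7-/- library. The log2 ratio of cycling over resting was -0.32 (95% interval -0.39 to -0.25) over both libraries, and it turned to 0.40 within the cluster that held most of the cycling cells, as described below. In macrophage-like cells the sum was 254 and 216 CPM with Lmo7+/+ hosts and 230 and 205 CPM with Lmo7-/- hosts, a log2 ratio of 0.22 (0.15 to 0.29). This ratio became -0.40 when cycle and histone genes were kept for clustering, which left 410 of 1013 (Lmo7+/+) and 351 of 843 (Lmo7-/-) cycling cells in the class. In T cell-like cells the sum was 358 and 243 CPM, and 356 and 169 CPM, a log2 ratio of 0.81 (0.54 to 1.09). Each direction was seen in both libraries. Cycling and resting T cell-like cells lay in unlike clusters: 48.9% and 49.2% of the cycling cells were in cluster 5.6, led by Xcl1 and Gzmb, and 51.3% and 59.9% of the resting cells in cluster 5.5, led by Gzmf and Cd8a. The ratio was 0.40 (0.09 to 0.72) without cluster 5.6 and turned to -0.63 (-1.25 to -0.04, 34 and 87 UMIs) within cluster 5.5, so its direction also depended on the cluster.

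Behind these sums the summed histone classes moved apart, each weighted toward its leading gene. In tumor cell-like cells H4 was higher in cycling cells (25.5 against 11.4 CPM, log2 ratio 1.16, interval 0.97 to 1.35) and H2B was lower (18.2 against 47.9 CPM, -1.40, -1.53 to -1.27). H2A was lower (14.0 against 23.9 CPM, -0.77), H1 went opposite ways in the libraries (0.31, 0.14 to 0.48, with Lmo7+/+ and -0.11, -0.33 to 0.11, with Lmo7-/- hosts) and the interval of H3 (-0.10, -0.54 to 0.35) spanned 0. In macrophage-like cells H3 (13.2 against 4.66 CPM, 1.5) and H4 (22.3 against 8.70 CPM, 1.36) were higher in cycling cells, H1 was slightly higher (103 against 85.1 CPM, 0.28) and H2B slightly lower (70.0 against 78.0 CPM, -0.16). In T cell-like cells H3 (1.86), H2A (1.48), H4 (1.05) and H1 (0.59) had ratios whose intervals lay above 0, and that of H2B (0.03, -0.53 to 0.62) did not. H4 was thus higher in cycling cells of all 3 classes, whereas H2B, which is mostly Hist1h2bc, was in none of them higher by more than counting error. Single genes also weighed on H2A and H1 in tumor cell-like cells. Hist3h2a held 515 of the 610 H2A UMIs of resting cells and 207 of the 651 of cycling cells. Hist1h1c held 614 of 687 and 456 of 1389 for H1. A class sum therefore does not give the direction of its other members, which are described below.

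**Figure D2:**
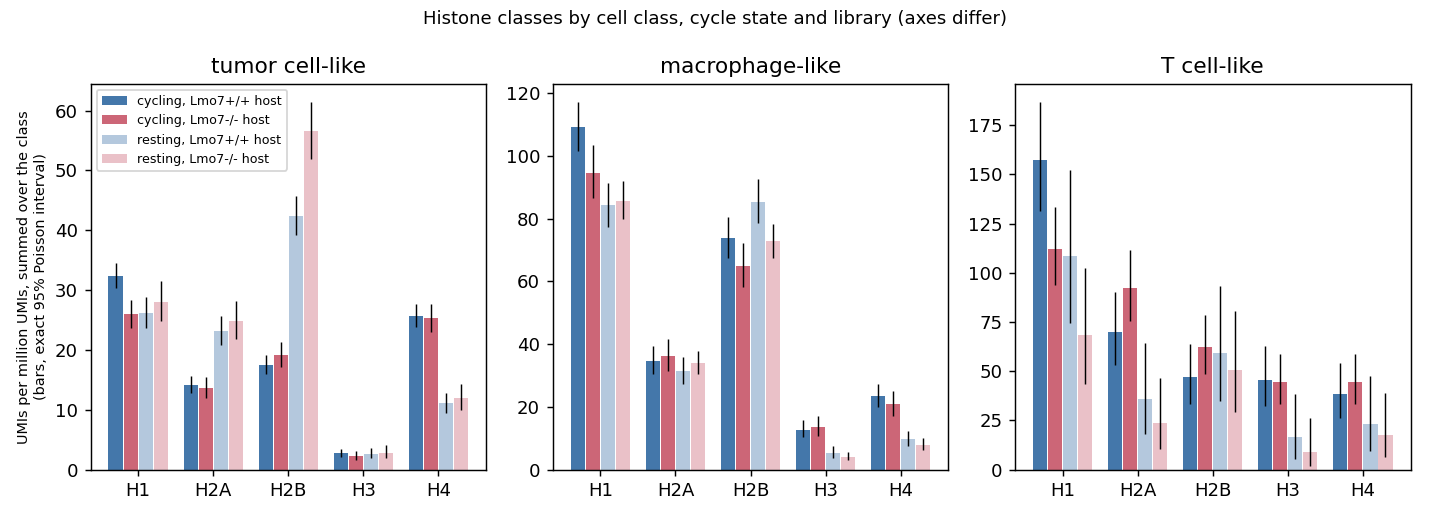
Summed level of each histone class in cycling (full colour) and resting (pale) cells of 3 cell classes and both libraries, in CPM on axes that start at 0 and differ between panels; black bars are exact 95% Poisson intervals. In the tumor cell-like panel H2B reaches 42.4 and 56.6 CPM in resting cells against 17.5 and 19.2 in cycling cells, while H4 reaches 25.7 and 25.3 CPM in cycling cells against 11.1 and 12 in resting ones.

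Among the 24 members with at least 20 UMIs in tumor cell-like cells, 14 had a log2 ratio of cycling over resting of at least 1, against 5.5% of all 13502 genes with as many UMIs, and 4 had a ratio of at most -1, against 5.04%. In macrophage-like cells 11 of 20 members passed upward, against 7.28% of 11704 genes, and 1 downward (Hist2h3c1), against 1.68%. In T cell-like cells 6 of 10 passed upward, against 9.28% of 8789 genes, and 0 downward, against 4.9%. No test was made of these counts, since a group held 1 library per genotype and a member reached the minimum partly through the state in which it was high. The median log2 ratio of these members was 1.29 in tumor cell-like and 1.37 in macrophage-like cells, beside -0.05 and 0.08 over all genes. Medians of single libraries, over members with at least 20 UMIs in that library, differed. In tumor cell-like cells the median was 1.22 (17 members) with Lmo7+/+ and 0.39 (14 members) with Lmo7-/- hosts. In macrophage-like cells it was 1.27 and 0.69. The sets of members were not the same. In tumor cell-like cells Hist1h1a (2.50), Hist1h3c (1.80) and Hist2h2ac (1.22) reached the minimum only with Lmo7+/+ hosts. The part of this in the difference was not tested.

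Linker histones went both ways. Hist1h1b stood at 10.5 and 7.95 CPM in cycling and at 0.512 and 0.604 CPM in resting tumor cell-like cells of the Lmo7+/+ and Lmo7-/- libraries, a log2 ratio of 4.12 (3.36 to 5.00). In macrophage-like cells it stood at 21.7 and 12.3 CPM against 1.19 and 0.64 CPM, a log2 ratio of 4.35 (3.57 to 5.24). In T cell-like cells it stood at 52.9 and 35.1 CPM against 6.57 and 0 CPM, a ratio of 3.77 (1.88 to 6.84) that rested on 2 UMIs in resting cells. The cycling groups of both libraries were above the resting groups of both in all 3 cell classes.

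Hist1h1e followed in the same direction at 9.72 and 6.56 CPM in cycling against 1.92 and 1.11 CPM in resting tumor cell-like cells (log2 ratio 2.40, 1.94 to 2.91), and at 16.2 and 6.83 CPM in cycling but 3.13 and 1.71 CPM in resting macrophage-like cells (2.40, 1.88 to 2.96). Hist1h1c went the other way in tumor cell-like cells, at 9.93 and 9.62 CPM in cycling against 23.0 and 25.7 CPM in resting cells (-1.29, -1.47 to -1.11). In macrophage-like cells its levels were 66.7 and 71.9 CPM in cycling against 79.1 and 81.6 CPM in resting cells (-0.23, -0.35 to -0.10), and in T cell-like cells 44.5 and 42.1 against 91.9 and 53.4 CPM (-0.73, -1.27 to -0.18). Over both libraries, cycling cells thus held more Hist1h1b and Hist1h1e and less Hist1h1c on the CPM scale than resting cells in each of the 3 classes.

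Among H2A genes, Hist3h2a was lower in cycling tumor cell-like cells, at 3.72 and 5.62 CPM against 19.8 and 20.6 CPM (-2.18, -2.42 to -1.94), and lower in cycling macrophage-like cells, at 12.3 and 16.9 against 25.1 and 29.7 CPM (-0.96, -1.22 to -0.71). Hist1h2ae was higher in cycling cells of both, at 4.35 and 3.0 against 1.15 and 2.01 CPM in tumor cell-like cells (1.36, 0.85 to 1.91) and at 7.38 and 6.45 against 2.98 and 1.81 CPM in macrophage-like cells (1.60, 1.03 to 2.20). Hist1h2ag, whose annotated transcript ends just past the stem-loop, stood at 6.81 and 7.59 against 0.895 and 0.426 CPM in macrophage-like cells (3.52, 2.58 to 4.63), and at 25.2 and 38.6 against 6.57 and 2.97 CPM in T cell-like cells. Hist1h2ac, the neighbour of Hist1h2bc, had intervals that spanned 0 in tumor cell-like (0.48, -0.10 to 1.09) and macrophage-like cells (0.15, -0.71 to 1.01). Hist3h2a thus lay below 0, Hist1h2ae and Hist1h2ag above it, and Hist1h2ac could not be told from it.

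Among H2B genes, Hist1h2bc stood at 12.9 and 15.7 CPM in cycling against 38.8 and 53.1 CPM in resting tumor cell-like cells (-1.67, -1.81 to -1.53), the values with the most UMIs behind them of any member in that class. In macrophage-like cells it stood at 62.0 and 53.5 against 77.1 and 66.8 CPM (-0.29, -0.42 to -0.15). Hist2h2be, an H2B gene of the smaller cluster on chromosome 3, had intervals that spanned 0 in tumor cell-like (-0.16, -0.62 to 0.31) and in macrophage-like cells (0.11, -0.52 to 0.72). Hist1h2bj, the neighbour of Hist1h2ag, was higher in cycling macrophage-like cells (3.71, 1.67 to 6.85), on 20 and 2 UMIs. Hist3h2ba had 34 and 38 UMIs in cycling and resting macrophage-like cells (0.22, -0.49 to 0.93) and too few in tumor cell-like cells for a ratio.

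Among H3 genes, Hist1h3c stood at 5.39 and 5.88 CPM in cycling against 0.597 and 0.853 CPM in resting macrophage-like cells (2.91, 2.01 to 3.93). In T cell-like cells it stood at 19.2 and 33.3 against 3.28 and 0 CPM, with 1 UMI in resting cells. Hist2h3c1 was lower in cycling tumor cell-like cells (-1.95, -2.91 to -1.05, 50 UMIs) and macrophage-like cells (-2.20, -3.92 to -0.82, 35 UMIs), but none of its sequence was unique, so these UMIs cannot be placed with certainty. Among H4 genes, Hist1h4i stood at 21.1 and 19.7 CPM in cycling against 8.26 and 8.96 CPM in resting tumor cell-like cells (1.27, 1.06 to 1.49) and at 12.6 and 12.3 against 5.37 and 4.58 CPM in macrophage-like cells (1.35, 0.95 to 1.76). Hist1h4d was also higher in cycling cells of both (1.46, 0.51 to 2.54, and 2.74, 1.63 to 4.05), whereas Hist1h4h was not (-0.65, -1.38 to 0.08, and 0.04, -1.04 to 1.10). Members of 1 histone class therefore differed in direction within H1, H2A, H2B and H3.

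**Figure D3:**
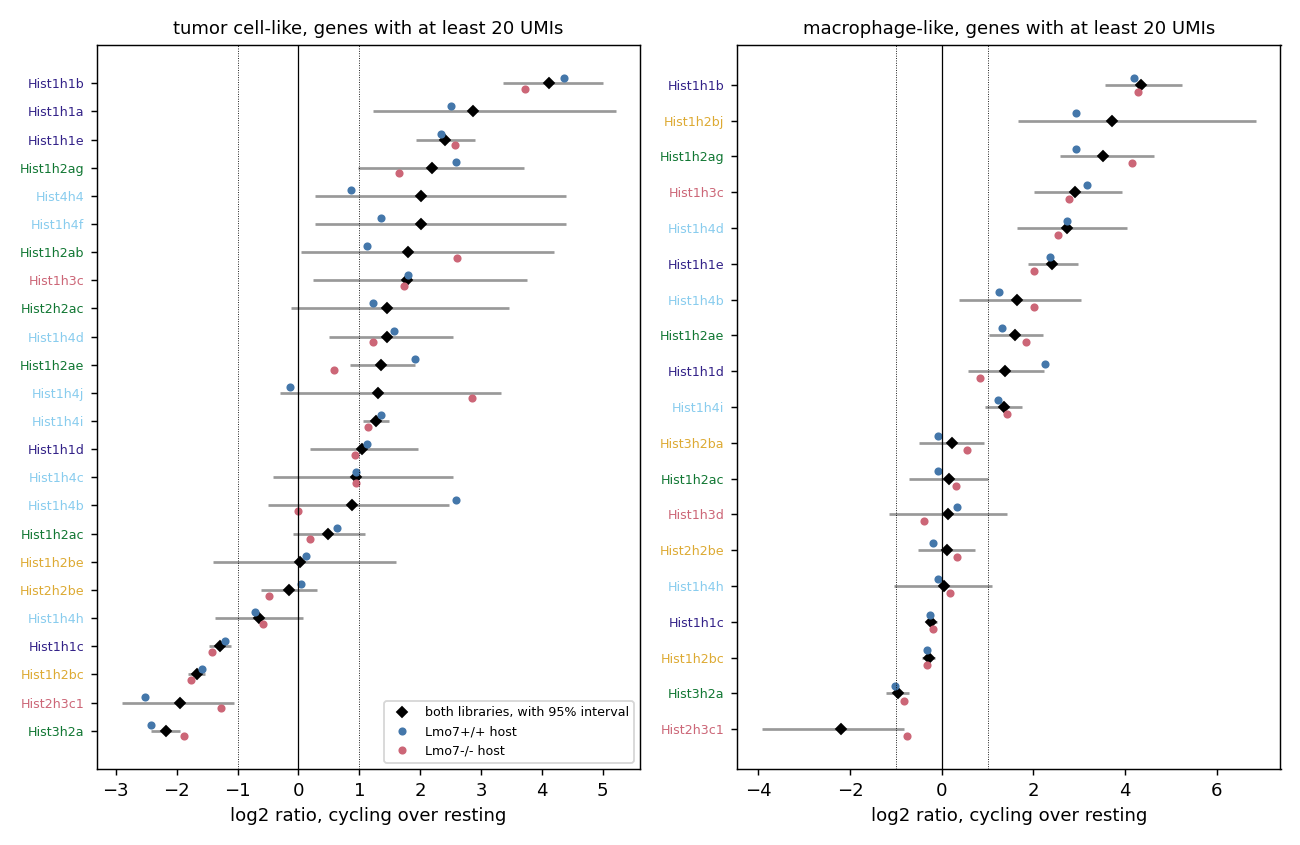
Log2 ratio of cycling over resting cells for each member with at least 20 UMIs and a UMI in both states, in tumor cell-like (24 genes) and macrophage-like cells. Diamonds with bars are both libraries with the 95% interval for counting error, points the single libraries, and dotted lines mark -1 and 1; Hist1h1b stands highest in both panels, at 4.12 and 4.35, and Hist3h2a, Hist2h3c1, Hist1h2bc and Hist1h1c stand lowest in the tumor cell-like panel. Gene names are coloured by histone class as in the plot of members.

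The tumor cell-like class held unlike clusters in the states compared. Of its cycling cells, 61.0% (Lmo7+/+) and 53.9% (Lmo7-/-) lay in cluster 13, led by Klra4 and Trip13, whereas 64.0% and 71.5% of its resting cells lay in cluster 2, led by Car9, Ndufa4l2, Ankrd37 and Egln3, which are known as genes induced at low oxygen. Within cluster 2 the summed ratio of cycling over resting was -0.61 (-0.74 to -0.48) and within cluster 13 it was 0.40 (0.25 to 0.56), so the direction of the sum depended on the cluster. By member and over both libraries, Hist1h2bc was lower in cycling cells within clusters 2, 13 and 7 (-1.84, -0.61 and -1.26), and so were Hist1h1c (-1.16, -0.59 and -1.65) and Hist3h2a (-1.62, -1.42 and -1.98). Hist1h1b (3.42, 5.61 and 4.62), Hist1h1e (2.48, 1.58 and 3.17) and Hist1h4i (1.03, 1.05 and 0.71) were higher, the interval of Hist1h4i in cluster 7 (-0.22 to 1.78) spanning 0. In cluster 13 of the Lmo7-/- library alone, Hist1h2bc (-0.01, -0.57 to 0.59) and Hist1h1c (0.29, -0.51 to 1.21) did not differ beyond counting error, with 30 and 14 UMIs in resting cells. Macrophage-like cells lay mostly in cluster 4 in both states (81.0% to 94.2%), where the sum (0.24), Hist1h1b (4.36) and Hist3h2a (-0.99) were close to those of the whole class.

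Cycling cells were split by which list they carried: S (at least 6 UMIs of the S list and at most 2 of the G2/M list), G2/M (the reverse) or mixed (the rest). Over both libraries, cells of the S list held 57.2 CPM in the tumor cell-like, 105 in the macrophage-like and 197 in the T cell-like class, against 113, 209 and 204 CPM in resting cells, so S cells stood lower in the first pair of classes and the intervals overlapped in T cell-like cells (157 to 245 and 171 to 242). Mixed cells held 98.9, 249 and 407 CPM and G2/M cells 75.2, 377 and 330 CPM. Slbp, the stem-loop binding protein that is made in S phase, stood highest in S and mixed cells (86.1 and 78.2 CPM in macrophage-like cells, against 37.9 in G2/M and 26.9 in resting cells), the reverse, over S, mixed and G2/M cells, of the order of the captured histone sum in that class.

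Members differed over these groups. In macrophage-like cells Hist1h1c stood at 20.8 CPM in S, 64.6 in mixed and 137 CPM in G2/M cells, and Hist1h2bc at 24.5, 52.6 and 116 CPM, with resting cells between at 80.6 and 71.1 CPM. Hist1h1b stood at 4.57 CPM in S, 23.6 in mixed, 11.4 in G2/M and 0.87 CPM in resting cells, and Hist1h1e at 2.08, 16.4, 8.22 and 2.30 CPM. In tumor cell-like cells Hist1h1c kept to 8.39, 9.95 and 10.1 CPM in S, mixed and G2/M cells, all below the 24 CPM of resting cells. Hist1h4i stood at 13, 22.8 and 16.5 CPM in them and at 8.53 CPM in resting cells. Hist1h1b and Hist1h1e thus stood highest in cells that carried both lists, and Hist1h1c and Hist1h2bc reached their highest level in resting cells of the tumor class but in G2/M cells of the macrophage class. The S groups held 464 tumor cell-like and 389 macrophage-like cells, and the T cell-like G2/M group only 31.

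**Figure D4:**
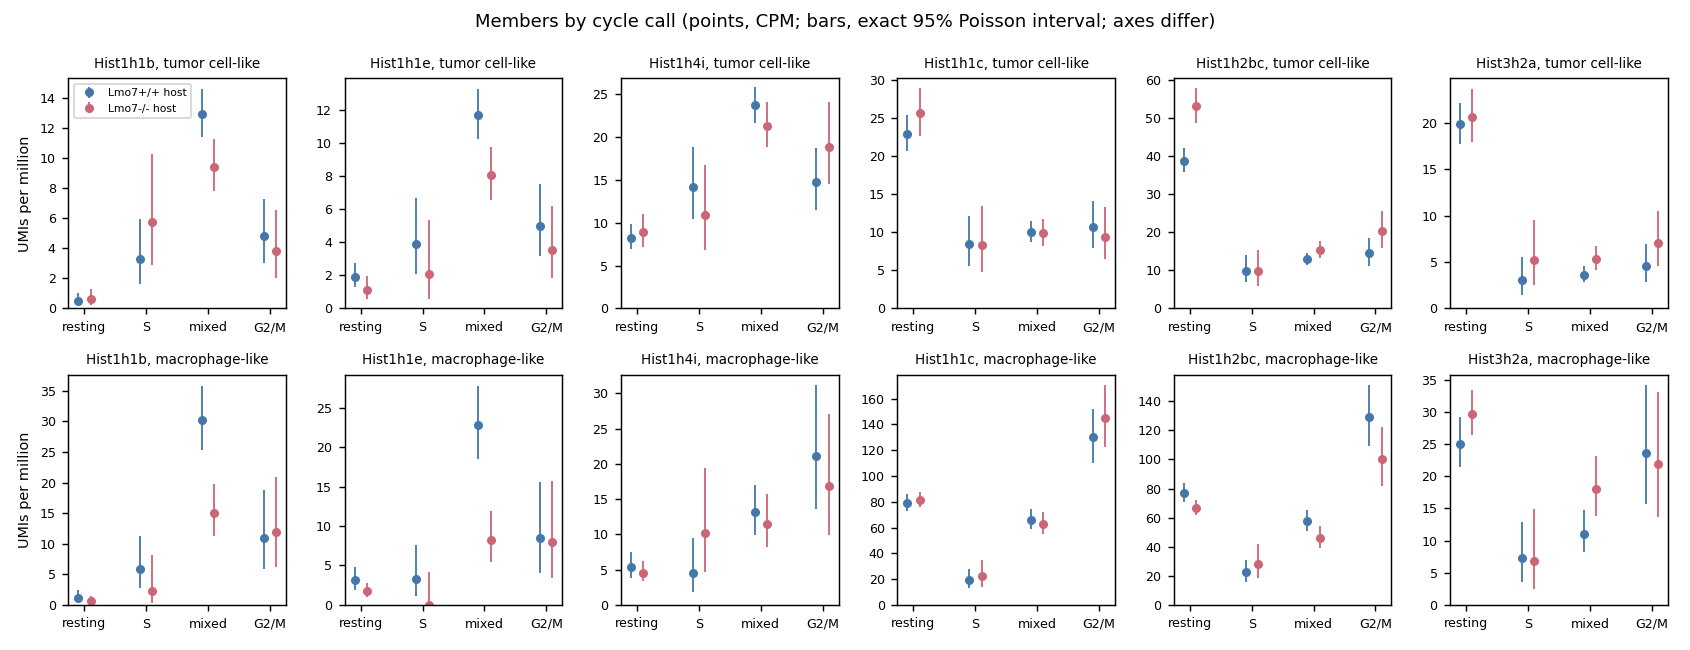
Level of 6 members in resting, S, mixed and G2/M cells of the tumor cell-like (upper row) and macrophage-like class (lower row), in CPM on axes that start at 0 and differ between panels. Points are the 2 libraries and bars exact 95% Poisson intervals; in mixed macrophage-like cells Hist1h1e stands at 22.8 CPM with Lmo7+/+ and 8.27 CPM with Lmo7-/- hosts.

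Between the host genotypes, the summed members of cycling cells differed little. The log2 ratio of the library labelled Lmo7-/- over that labelled Lmo7+/+ was -0.10 (-0.19 to -0.01) in cycling tumor cell-like, -0.14 (-0.25 to -0.03) in cycling macrophage-like and -0.01 (-0.23 to 0.21) in cycling T cell-like cells. By histone class, H1 was lower in the Lmo7-/- library in all 3 (-0.32, -0.21 and -0.49, with intervals below 0), and the intervals of H2A, H2B, H3 and H4 spanned 0 in all 3. In cycling tumor cell-like cells 2 of 20 members with at least 20 UMIs had a ratio of at least 0.5, against 4.85% of all genes tested. They were Hist4h4, whose interval spanned 0, and Hist3h2a, whose interval lay above 0. A ratio of at most -0.5 was reached by 6, against 4.45%. Of these 6, Hist1h1e, Hist1h2ae, Hist1h1a and Hist2h2ac had intervals below 0, the last with 3 UMIs in the Lmo7-/- library. In cycling macrophage-like cells 1 of 16 passed upward (Hist3h2ba), against 5.1%, and 4 downward (Hist1h2bj, Hist1h1e, Hist1h1b and Hist1h4d), against 8.85%. The intervals of Hist1h1e and Hist1h1b lay below 0, and those of Hist3h2ba, Hist1h2bj and Hist1h4d spanned 0. In cycling T cell-like cells 4 of 8 passed upward (Hist1h3c, Hist1h4i, Hist1h2bc and Hist1h2ag), against 8.07%, all with intervals that spanned 0, and 2 downward (Hist1h1e and Hist1h1b), against 13.6%.

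Hist1h1e was lower in the Lmo7-/- library in cycling cells of all 3 classes, with intervals below 0. It stood at 9.72 and 6.56 CPM in tumor cell-like cells of the Lmo7+/+ and Lmo7-/- libraries (-0.57, -0.89 to -0.25), at 16.2 and 6.83 CPM in macrophage-like cells (-1.24, -1.83 to -0.69) and at 52.9 and 27.2 CPM in T cell-like cells (-0.96, -1.67 to -0.26). Hist1h1b was at 10.5 and 7.95 CPM (-0.40, -0.70 to -0.11), 21.7 and 12.3 CPM (-0.82, -1.26 to -0.39) and 52.9 and 35.1 CPM (-0.59, -1.25 to 0.06) in the same order, and its macrophage-like ratio turned to 0.05 at a clustering resolution of 1.0, which left 119 and 152 cycling macrophage-like cells. Hist1h1c did not follow, with ratios of -0.05 (-0.33 to 0.23), 0.11 (-0.09 to 0.31) and -0.08 (-0.73 to 0.58). Hist3h2a was higher in the Lmo7-/- library in cycling tumor cell-like cells (3.72 and 5.62 CPM, 0.59, 0.19 to 1.00) and in cycling macrophage-like cells (12.3 and 16.9 CPM, 0.45, 0.01 to 0.89), where the ratio was -0.006 with cycle and histone genes kept for clustering.

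Mixed cells, the largest group of cycling cells, gave the same direction. In mixed macrophage-like cells Hist1h1e had a ratio of -1.46 (-2.12 to -0.85) and Hist1h1b of -1.0 (-1.5 to -0.53), against -0.09 (-1.63 to 1.41) and 0.12 (-1.14 to 1.37) in G2/M cells, where few UMIs gave wide intervals and the difference from mixed cells was not tested. In mixed tumor cell-like cells the ratios were -0.54 and -0.46, and in mixed T cell-like cells -1.03 and -0.88, all with intervals below 0. Within clusters, Hist1h1e in cycling cells had ratios of -1.21 in cluster 2, -0.67 in cluster 13, -0.08 (-0.81 to 0.63) in cluster 7 and -1.25 in cluster 4. Median depth of cycling cells was lower in the Lmo7-/- library in the tumor cell-like and macrophage-like classes (given above), as was the share of cycling macrophage-like cells. Their part in these ratios was not tested, and with 1 library per genotype a difference between libraries and a difference between genotypes cannot be told apart.

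**Figure D5:**
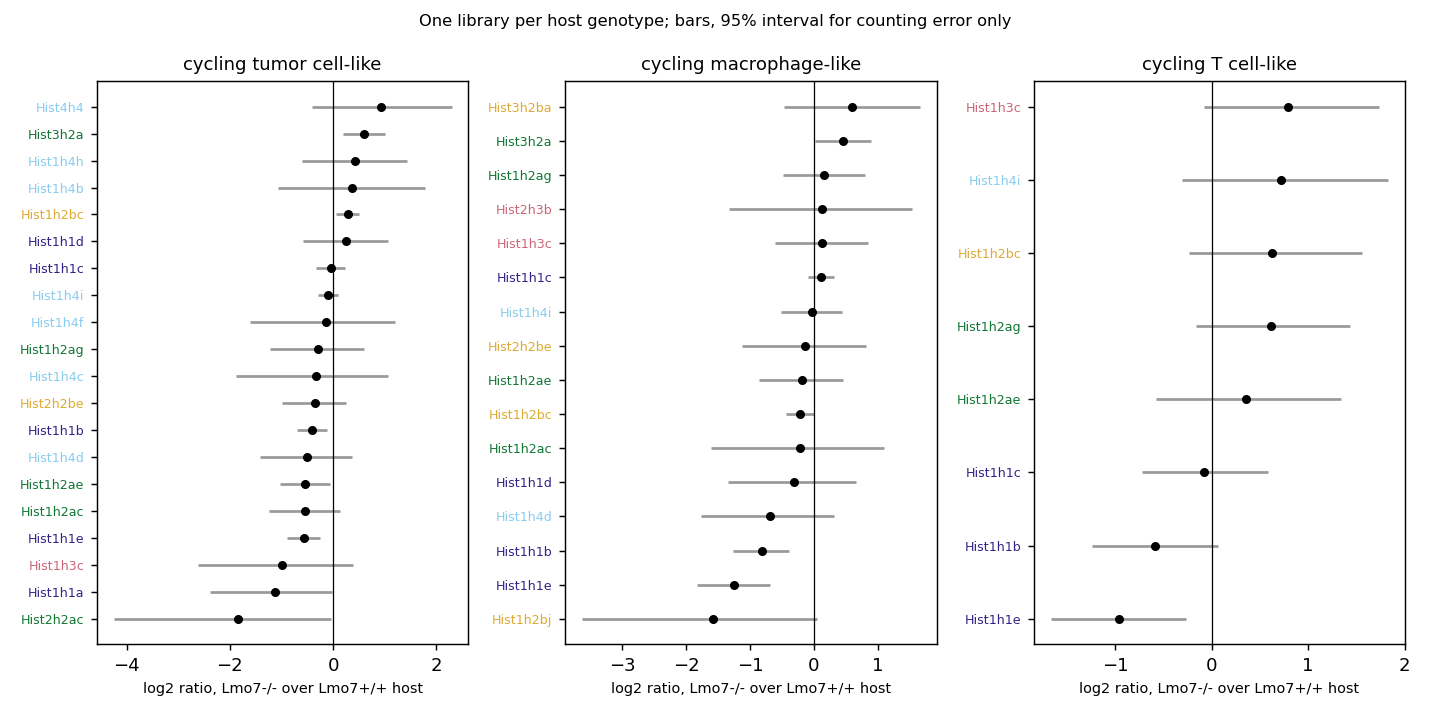
Log2 ratio of the library labelled Lmo7-/- over that labelled Lmo7+/+ for members with at least 20 UMIs in cycling tumor cell-like, macrophage-like and T cell-like cells, with 95% intervals for counting error on 1 library per genotype. Gene names are coloured by histone class as in the plot of members. Hist1h1e lies left of 0 in each panel, at -0.57, -1.24 and -0.96.

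In resting cells, the sum was higher in the Lmo7-/- library in the tumor cell-like class (124 against 106 CPM, 0.24, 0.13 to 0.34), where H2B stood apart (56.6 against 42.4 CPM, 0.41, 0.25 to 0.58) through Hist1h2bc (53.1 against 38.8 CPM, 0.45, 0.28 to 0.62). Within cluster 2 the sum had a ratio of 0.32 and Hist1h2bc of 0.50, but within cluster 13 they were -0.70 (-1.06 to -0.36) and -0.61 (-1.26 to -0.00), so the direction was that of cluster 2, which held most resting cells. In resting macrophage-like cells the sum did not differ beyond counting error (205 against 216 CPM, -0.08, -0.18 to 0.02), and Hist1h2bc was at 66.8 against 77.1 CPM (-0.21, -0.38 to -0.04), a ratio that turned to 0.021 with doublets removed and to 0.15 in cluster 3. Past a ratio of 0.5 stood 1 of 10 members in resting tumor cell-like cells (Hist1h2ae, 0.81), against 4.77% of genes tested, and past -0.5 stood 1 (Hist1h1e, -0.79), against 6.3%, both with intervals that spanned 0. In resting macrophage-like cells 1 of 11 passed upward (Hist1h1d), against 5.58%, and 4 downward (Hist1h1e, Hist1h2ae, Hist2h2be and Hist1h2ac), against 8.35%, again with intervals that spanned 0. In resting T cell-like cells 0 of 2 passed upward, against 13%, and 2 downward (Hist1h1c and Hist1h2bc), against 17.2%, with intervals that spanned 0.

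Of the other classes, resting endothelial cell-like cells held 641 CPM (552 to 741) in 53 cells of the Lmo7+/+ library and 336 CPM (262 to 424) in 37 cells of the Lmo7-/- library. H2B (296 and 185 CPM) and H1 (265 and 99.4 CPM) made most of these sums. Resting fibroblast-like cells held 285 and 209 CPM, resting dendritic cell-like cells 217 and 179 CPM, and resting monocyte-like cells 110 and 104 CPM. NK cell-like, neutrophil-like and mast cell-like cells had at most 28 cells in any library and state, with wide intervals such as 265 to 814 CPM in 8 cycling NK cell-like cells of the Lmo7-/- library. Among these 4 classes the order of resting cells was thus endothelial cell-like above fibroblast-like and then dendritic cell-like cells, with monocyte-like cells at about the level of resting tumor cell-like cells (106 and 124 CPM). In the Lmo7-/- library the intervals of the fibroblast-like (169 to 255) and dendritic cell-like cells (143 to 220) overlapped. Cycling dendritic cell-like cells held 348 CPM (295 to 407, 74 cells) and 244 CPM (185 to 316, 43 cells), above resting ones by more than counting error in the Lmo7+/+ library but not in the Lmo7-/- library.

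Genes that act with histones give the setting of these levels. Most replacement histones are made also outside S phase, from polyadenylated messages. H3f3b, which encodes H3.3, stood at 1721 and 1773 CPM in cycling and resting tumor cell-like cells over both libraries (-0.04), and H3f3a at 752 and 755 CPM (-0.01). H2afz (989 against 342 CPM, 1.53), Cenpa, the centromere H3 (291 against 32.2 CPM, 3.17), H2afx (1.02) and H1fx (1.40) were the 4 of 11 that passed a ratio of 1 in tumor cell-like cells, H2afy (0.36) did not, and none passed -1, beside 5.5% and 5.04% of all genes. In macrophage-like cells 4 of 10 passed upward (H2afz, H2afv, H2afx and Cenpa) and none downward, beside 7.28% and 1.68% of all genes.

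Of the genes for histone message processing and transcription, 1 of 14 passed a ratio of 1 in tumor cell-like cells, Slbp (91.0 against 37.6 CPM, 1.27), and 4 of 15 in macrophage-like cells, Slbp (1.43), Zfp473 (1.97), Npat (1.2) and Eri1 (1.37), with none past -1 in either, beside the same shares of all genes. Snrpb (0.59 and 0.80) and Snrpd3 (0.48 and 0.60), Sm proteins, and Cpsf2 (0.38 and 0.34), a cleavage factor subunit, had smaller ratios in tumor cell-like and macrophage-like cells. Of 19 histone chaperones, 8 passed upward in tumor cell-like and 10 in macrophage-like cells and none downward, beside those shares. Asf1b, which carries new H3 and H4, had ratios of 4.03 and 4.11. Npm1 (0.39 and 0.45), Nap1l1 (0.57 and 0.93) and Nap1l4 (0.23 and 0.50) were below 1 in both, and Ssrp1 passed in macrophage-like cells only (0.83 and 1.2).

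Across 36 groups of at least 20 cells, each of 1 named cell class, cycle state (cycling, between or resting) and library, the log2 level of Hist1h1b was most like that of Ccnf (Pearson r = 0.911), Aurkb (0.892), Kif22 (0.892), Cep55 (0.879) and Kif11 (0.875), which are genes of mitosis. Aurkb and Kif11 are in the cycle lists that defined the cycle states, so their likeness is partly fixed by construction. The groups were also split by cycle state, which favours likeness among all genes that follow the cycle. Levels of Hist1h1c were most like those of Cpt1a (0.772), Uba7 (0.768) and Icam1 (0.762), and those of Hist1h2bc most like Gpx3 (0.714), Pmepa1 (0.711) and Igfbp3 (0.708). The sum of the members was most like Slc43a3 (0.759), Endod1 (0.723) and Hipk3 (0.719). These correlations describe groups that share libraries and cell types. Of the genes listed here for Hist1h1b, none appeared among the 10 most like Hist1h1c or Hist1h2bc.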

How the data were processed

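The measurements were raw UMI counts per gene and cell, deposited by the authors as 1 matrix per library, with no normalization. Per the labels' processing notes the authors used Cell Ranger 2.1.1 and the mm10 genome, while the matrix headers give a software version of 3.0.0. Cell barcodes had 24 bases, and the annotation version was not given in the sources used here. The authors' cell types were not used here, and classes were rebuilt. Droplets entered as cells from 500 detected genes and 1000 UMIs upward, unless over 15% of their UMIs were mitochondrial. Scrublet, in scanpy 1.11.5, marked 2.90% (Lmo7+/+) and 2.60% (Lmo7-/-) of kept cells as doublets, which stayed in the main values and were removed in an alternative. Cells were clustered on 2000 variable genes without histone and cycle genes (30 principal components, 20 neighbours, Louvain resolution 0.5), and clusters were named "-like" from fixed markers. From the natural killer cell list 1 gene, Klra4, was dropped after it was seen to lead a tumor cell-like cluster. The deposited counts were summed per library, class and cycle state and divided by all UMIs of the group (CPM), with exact 95% Poisson intervals. Ratios were log2 ratios of CPM with exact binomial (Clopper-Pearson) 95% intervals, taken against 3 counts where a group had none. Counts and medians over members used genes with at least 20 UMIs in the groups compared. Some ratios of single members in cycle groups or single clusters were given with fewer UMIs. Intervals covered counting error only, and with 1 library per genotype no test between genotypes, and no p-value, was made. On simulated counts for tumor cell-like cells (13524 genes) the ratio had the right sign in 100% of 198 tested changed genes and its interval held the true value in 95.4% of unchanged genes. For macrophage-like cells these shares were 99.5% of 199 and 95.9%. The simulated counts held counting error only, so they checked the calculation and not variation between cells or libraries. Named were the 3 members with most UMIs per histone class, the 5 highest and 5 lowest ratios among members with at least 100 UMIs, members without UMIs and members of counts of 5 or fewer; the other members and the clusters named were chosen after their values were seen. The members and gene lists were chosen with earlier results of these data known. Sequence came from GENCODE M21 (GRCm38), where 99.85% of the gene identifiers matched, and from RefSeq promoters (GRCm38.p6); 6 members had no promoter entry. Alternatives were other cell filters, doublet removal, other cycle cuts, another clustering, TMM scaling (edgeR 4.0.16, normalization only), other count minimums and single clusters. Analyses ran in Python 3.11.15 and R 4.3.3.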

Additional observations from a re-analysis of the deposited data

Results flagged for a closer look

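The summed clustered histone genes differed in direction between cell classes. The log2 ratio of cycling over resting cells was -0.19 (Lmo7+/+) and -0.52 (Lmo7-/-) in tumor cell-like cells, 0.23 and 0.17 in macrophage-like cells, and 0.56 and 1.07 in T cell-like cells, so each library of the tumor cell-like class lay on the other side of 0 from each library of the other two. The difference between classes was not tested. Within cluster 13 of the tumor cell-like class the ratio was 0.25 and 0.82, on the side of the other classes, and within cluster 5.5 of the T cell-like class it was -1.31 and -0.13.

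A signal also appeared in cells that no comparison used. Cluster 0, which stayed unnamed and was led by Enpp2, Serpine2, Nrep, Igfbp5 and Col3a1, held Hist1h4i at 58.3 CPM in cycling cells of the Lmo7-/- library and at 32.0 CPM in those of the Lmo7+/+ library (log2 ratio 0.87, 0.58 to 1.17). Its 2202 cells scored highest on the tumor cell markers (0.346, fibroblast next at 0.137), above the named tumor cell-like clusters (0.180 to 0.239). It stayed unnamed because Col3a1, a fibroblast marker, was among its leading genes. The tumor cell-like values above thus leave out a cluster that scored as tumor.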

How the results depend on the processing

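No paired analysis was possible because each genotype had 1 library. Single-cluster values were chosen after seeing the data, and the cause of the changes below was not tested. For tumor cell-like cells, the summed log2 ratio of cycling over resting (-0.32) was 0.40 in cluster 13 only, -0.61 in cluster 2 only and -0.40 with the strict cell filter. Its count of 14 members past 1, of 24 tested, was 6 at resolution 1.0, 9 with the strict cycle cut, 29 with no count filter, 4 with at least 100 counts, 4 in cluster 2 and 7 in cluster 13. These counts, and those for macrophage-like cells below, are not shares, because the number of members tested can change with the setting. The share over all genes was not computed for the alternatives. The summed Lmo7-/- over Lmo7+/+ ratio in cycling cells (-0.10) was 0.14 in cluster 2, and in resting cells (0.24) it was -0.70 in cluster 13. For macrophage-like cells, the ratio of cycling over resting (0.22) was -0.40 with cycle and histone genes kept for clustering, 0.12 with the lenient filter, 0.043 at resolution 1.0, 0.13 with TMM scaling and 0.48 in cluster 3. Its count of 11, of 20 tested, was 6 at resolution 1.0, 5 with those genes kept, 32 with no count filter, 4 with at least 100 counts and 2 in cluster 3. The genotype ratio in cycling cells (-0.14) was 0.22 with those genes kept, -0.004 at resolution 1.0 and -0.002 in cluster 3, and in resting cells (-0.08) it was 0.038 with the strict filter, 0.041 with doublets removed and -0.29 at resolution 1.0. Of single members, Hist1h2bc in resting cells turned to -0.61 in tumor cluster 13, and to 0.021 without doublets and 0.15 in cluster 3 of the macrophage-like class; in cycling macrophage-like cells Hist3h2a turned to -0.006 with those genes kept and Hist1h1b to 0.046 at resolution 1.0. The T cell-like ratio of cycling over resting (0.81) was -0.63 in cluster 5.5, 1.65 in cluster 5.6 (6 UMIs in resting cells), 0.40 without cluster 5.6 and 0.93 without cluster 5.3. The genotype ratio of Hist1h1e in cycling cells ranged from -1.21 to -0.39 (tumor cell-like) and from -1.52 to -0.52 (macrophage-like) over the alternatives above, apart from single clusters 7 (-0.08) and 1.2 (0.07, 5 and 3 UMIs).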

Other observations

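Other members of cluster 0 lay the other way from Hist1h4i. Hist1h2bc stood at 35.1 CPM (Lmo7+/+) and 18.6 CPM (Lmo7-/-) in its cycling cells (log2 ratio -0.92, -1.27 to -0.57). In its resting cells Hist1h2bc stood at 60.1 and 20.4 CPM (-1.56), against a ratio of 0.45 in resting tumor cell-like cells. Hist1h1c had ratios of -1.03 and -1.07 in the same states. Hist1h1e (0.25, -0.45 to 0.98) and Hist1h1b (0.20, -0.41 to 0.83) did not differ beyond counting error in its cycling cells, unlike in cycling cells of the tumor cell-like and macrophage-like classes. Of cluster 0 cells deep enough to call, 46.8% and 61.8% were cycling, and the part of this difference in the values was not tested.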
